A study of Caenorhabditis elegans with 12 samples.

Results

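The genes described are his-32, his-38 and his-70 of Caenorhabditis elegans, chosen by name and set beside every other gene whose symbol is his- followed by a number in the deposited tables of H4K5ac and H4K8ac. The H4K5ac table held 10 such genes among 5632 listed genes and the H4K8ac table held 8 among 5671, which made 13 histone genes in either table of 7553 genes in all. The 3 chosen genes were among the 5 histone genes listed for both marks, the others being his-29 and his-71. RefSeq names 71 core histone genes of this kind in assembly WBcel235, and 58 of them gave their name to no region in either table.

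Core histones H2A, H2B, H3 and H4 form the protein spool around which DNA is wound, and most of them are made in large amounts when DNA is replicated, from many near-identical genes that lie in clusters. The H3.3 class of variant is also put into chromatin outside replication. Acetylation of lysine 5 and lysine 8 in the tail of H4, written H4K5ac and H4K8ac, is found at active promoters, and acetylation of lysine 5 is also carried by newly made H4 before it enters chromatin. The gene his-32 encodes H3, his-38 encodes H4, the protein that carries both lysines, and his-70 encodes an H3.3-like variant.

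The series, whose title links histone deacetylation to lipid metabolism, measured both marks by chromatin immunoprecipitation and sequencing. There were 4 groups of 3 libraries, namely the H4K5ac precipitate (IP) with its input, and the H4K8ac IP with its input. All 12 libraries came from whole adults of the wild-type Bristol N2 strain kept at 20 °C on E. coli OP50, with no treatment or mutant among them, so that the comparison the design gives is IP against input. Because whole animals were used, fewer marked cells and less mark per cell cannot be told apart. The labels number the replicates without stating separate cultures, so p-values measure only the spread between these libraries, which may be technical.

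Each library had 1 estimated count per gene, and the totals ran from 5460428 to 9156391 in the H4K5ac table and from 6418841 to 9136344 in the H4K8ac table. Levels are given as counts per 1000000 counts of the scaled library (CPM), scaled within each table. A fold is IP over input relative to the typical listed gene, and not to the genome, since each table was scaled by its own listed genes. The regions were listed in order of decreasing IP over input, and region numbers up to 9300 and 9278 had 2868 and 2881 gaps. The submitters' notes name the peak caller MACS2, so a negative fold at a listed gene does not show that the mark is depleted there. The fitted log2 fold had a median of -0.02 over all genes for H4K5ac and of -0.04 for H4K8ac. The core histone genes are near-identical copies, and the sources used here do not give how reads with several matching places were treated, so each value for a single copy is uncertain.

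At his-38, the H4 gene, CPM was lower in IP than in input for both marks on this scale, which is relative to the typical listed gene. For H4K5ac the level was 185, 173 and 176 CPM in IP replicates 1 to 3, against 214, 214 and 222 CPM in input. For H4K8ac it was 183, 196 and 185 CPM in IP, against 215, 218 and 212 CPM in input. Every IP library lay below every input library for both marks, as did 33.1% of all genes in the H4K5ac table and 36.6% in the H4K8ac table. The log2 fold was -0.28 ± 0.06 (SE) for H4K5ac, a ratio of 0.823, which passed edgeR's quasi-likelihood test with an adjusted p of 0.00285. For H4K8ac it was -0.19 ± 0.05, a ratio of 0.875, with an edgeR adjusted p of 0.00497. Both differences had the opposite sign, 0.04 and 0.08, when the 20% of genes with the least enrichment set the scale. That scale takes the genes with the lowest IP over input in these data as unchanged, so it raises all folds by construction. For H4K5ac his-38, at the 15.1 percentile of the mean ratio, is itself among the genes that set it. By its replicate ratios, which no scaling reorders, his-38 stood at the 31.4, 13.4 and 5.26 percentiles of all genes for H4K5ac and at 26.6, 25.2 and 24.3 for H4K8ac. Such ratios join IP and input by replicate number, which did not pair the H4K8ac samples.

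At his-32, the H3 gene, IP fell below input for H4K5ac, and the H4K8ac groups overlapped. The H4K5ac level was 50.4, 50.9 and 51.2 CPM in IP and 57.7, 63.2 and 57.3 CPM in input, and again no IP library reached the lowest input. The log2 fold was -0.23 ± 0.07 (SE), a ratio of 0.852, with an edgeR adjusted p of 0.0106. Without H4K5ac input replicate 2, the highest of the inputs, it was -0.18 with an adjusted p of 0.0862. When the 20% of genes with the least enrichment set the scale, it was 0.09, below the median of all genes on that scale, 0.30. The H4K8ac level was 52.5, 61.9 and 57.6 CPM in IP and 57.6, 58.5 and 59.7 CPM in input. IP replicate 2 was the highest of those 6 libraries and IP replicate 1 the lowest. The H4K8ac log2 fold was -0.04 ± 0.07 (SE), with an edgeR adjusted p of 0.642 and a 95% interval from -0.16 to 0.09. It was 0.04 without IP replicate 1. With those least enriched genes as the scale it was 0.24 and passed as higher in IP, with an edgeR adjusted p of 0.00176. The median of all genes was then also 0.24, and 3696 genes passed as higher, so his-32 stood at the typical listed gene.

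At his-70, the H3.3-like gene, the groups did not overlap for either mark, but neither fold passed the test. The H4K5ac level was 112, 111 and 126 CPM in IP and 129, 131 and 129 CPM in input. For H4K8ac it was 116, 124 and 118.5 CPM in IP and 130.3, 126 and 130.2 CPM in input. The closest libraries were H4K5ac IP replicate 3 and H4K8ac IP replicate 2, each just under the lowest input of its table. The log2 fold was -0.16 ± 0.07 (SE) for H4K5ac, with an edgeR adjusted p of 0.0691. For H4K8ac it was -0.11 ± 0.05 with an edgeR adjusted p of 0.0818. Under scaling by total counts the his-70 folds were -0.29 and -0.18, with adjusted p of 0.00501 and 0.0121. With the 20% of genes with the least enrichment as the scale they were 0.15 and 0.17, with adjusted p of 0.0624 and 0.0105, so that his-70 passed as higher in IP for H4K8ac. Both were below the medians of all genes on that scale, 0.30 and 0.24. Without H4K5ac IP replicate 3 the H4K5ac fold was -0.22, with an adjusted p of 0.018.

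**Figure D1:**
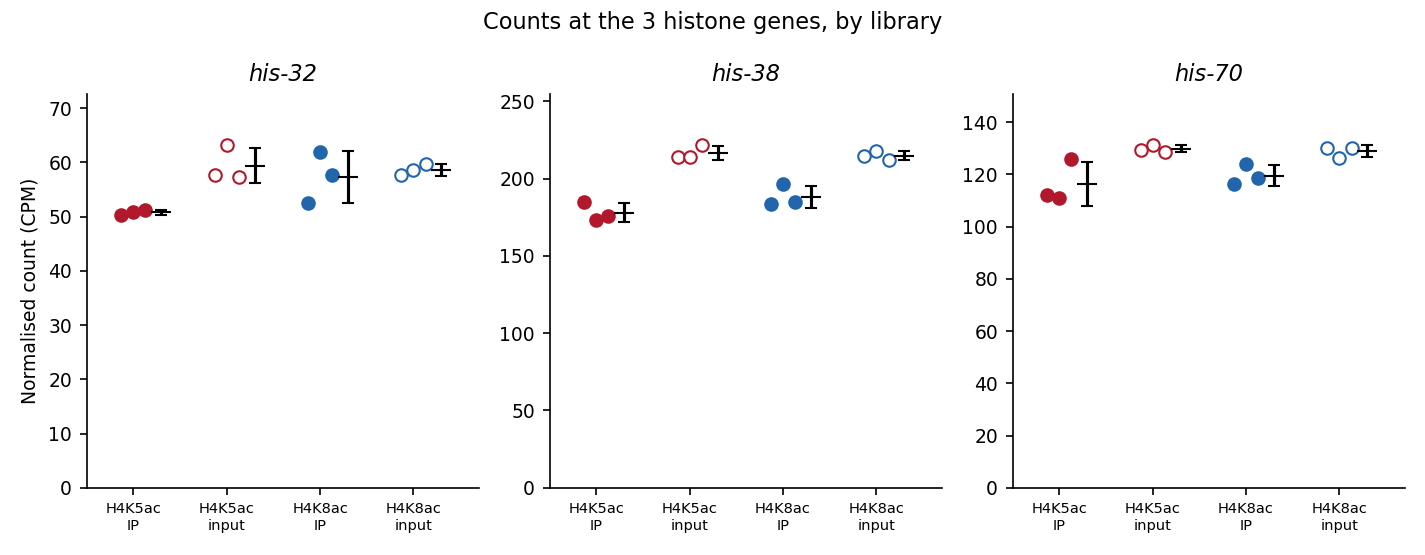
CPM of his-32, his-38 and his-70 in each IP and input library of the H4K5ac and H4K8ac tables, with points for libraries and bars for the mean ± SD of 3 libraries. The his-38 IP libraries lie between 173 and 196 CPM and its inputs between 212 and 222 CPM, whereas the his-32 groups overlap for H4K8ac. This separation depends on the scaling, since the his-38 folds changed sign when the 20% of genes with the least enrichment set the scale.

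The 3 genes differed in level. In input, his-38 averaged 217 ± 4.60 CPM in the H4K5ac table (SD, n = 3), his-70 129.8 ± 1.36 CPM and his-32 59.44 ± 3.297 CPM. The order was the same in the H4K8ac table, with input means of 215 ± 3.09, 129 ± 2.20 and 58.6 ± 1.02 CPM. The same order held, turned round, for the number of annotated genes that meet a window of 2 kb to either side of the transcription start site (TSS), the gene itself included, which was 2 for his-38, 3 for his-70 and 5 for his-32. Across all genes, the Spearman correlation of that number with input CPM was -0.504 for H4K5ac and -0.50 for H4K8ac, a description over genes that share their libraries. Of the deposited counts, 73.5% and 80.8% were fractions. How the counts were divided among genes was not tested, so input CPM is not read here as a measure of gene dosage. The number of genes in the window had little relation to the log2 ratio of IP over input (Spearman 0.0307 and 0.036).

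**Figure D2:**
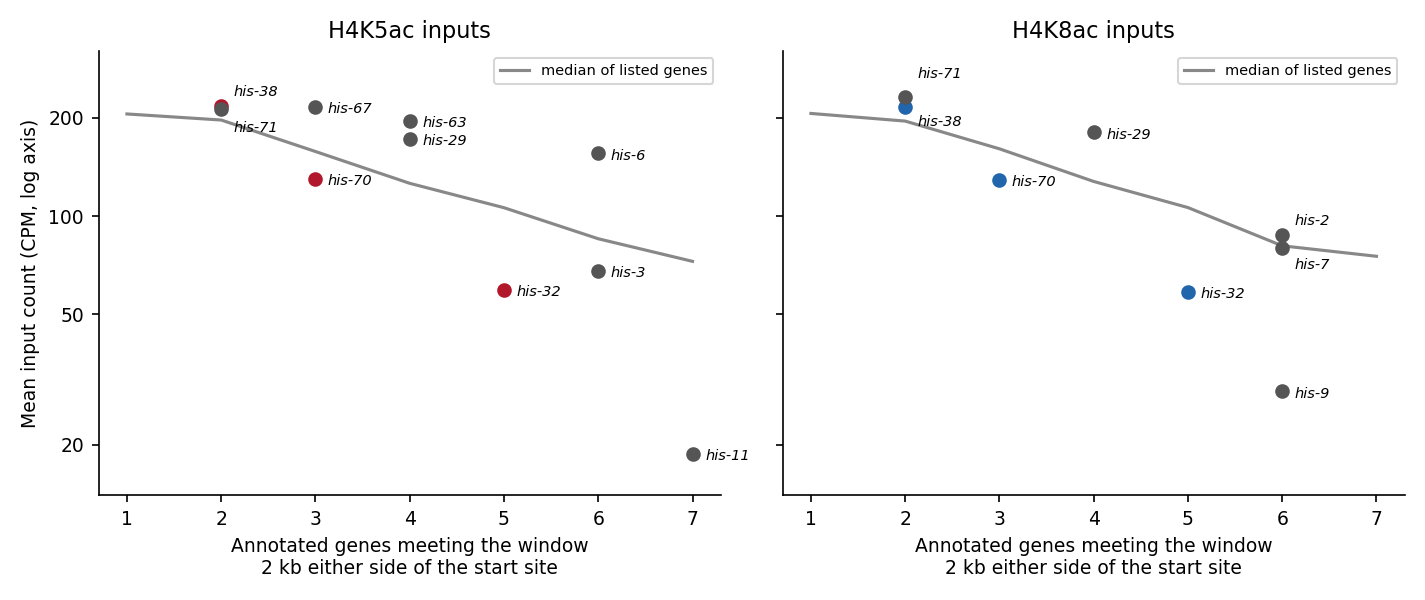
Mean input CPM (log axis) of each listed histone gene (points) against the number of annotated genes that meet the window of 2 kb to either side of the TSS, with the median of all listed genes as a line. The median over all genes falls to 106 CPM at 5 genes, against 197 and 195 CPM at 2 genes, and his-38, his-70 and his-32 follow that order. Single histone genes lie on both sides of the line, and his-32, at 59.4 and 58.6 CPM, lies below it for both marks.

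Among all listed histone genes, those that passed edgeR's test for H4K5ac were 2 higher in IP and 3 lower of 10, with a median log2 fold of -0.03. Of all 5632 genes, 61.6% passed, 32.2% as higher and 29.5% as lower. For H4K8ac, 2 were higher and 1 was lower of 8, with a median of -0.06, against 64.8% of all genes that passed, 31.2% as higher and 33.6% as lower. These counts depend on the scaling. With the 20% of genes with the least enrichment as the scale, 5 histone genes were higher and 0 lower for H4K5ac and 7 higher and 0 lower for H4K8ac, while all genes had 3385 and 3696 calls higher and 0 lower. Because that scale takes the lowest ratios as unchanged, the lack of lower calls was built in and is not a result. With total counts as the scale, 2 were higher and 5 lower for H4K5ac and 1 higher and 4 lower for H4K8ac, while all genes had 1349 higher and 2627 lower for H4K5ac and 1454 higher and 2497 lower for H4K8ac. With 1 library left out, 1 to 4 histone genes were lower for H4K5ac. The lowest count was without input replicate 2. Of the 3 chosen genes, 2 passed as lower for H4K5ac and 1 for H4K8ac with TMM scaling, and none as higher. With the least enriched genes as the scale, his-32 and his-70 passed as higher for H4K8ac, among the 3696 genes that did.

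The higher genes were an H2B and an H3 gene for H4K5ac and an H3 and an H2A gene for H4K8ac. Of these, his-11 and his-9 lie in the same cluster of 13 genes on chromosome II, and the region of each covers all 13. The gene his-7 lies in a cluster of 5 genes, whose H4K5ac region is named for the H3 gene his-6. The class is thus that of the gene a region is named for, and classes are not compared between marks. The H2B gene his-11 had 32.8, 29.4 and 29.4 CPM in H4K5ac IP and 19.5, 18.6 and 18.1 CPM in input, a log2 fold of 0.70 ± 0.07 (SE) with an edgeR adjusted p of 1.79e-05. The H3 gene his-63 had 302, 249.6 and 257 CPM in H4K5ac IP and 198, 195 and 193 CPM in input, a log2 fold of 0.47 ± 0.08 with an edgeR adjusted p of 0.000733. The H3 gene his-9, listed for H4K8ac, had 42.8, 38.8 and 38.1 CPM in IP and 28.4, 29.6 and 29.3 CPM in input, a log2 fold of 0.46 ± 0.06 with an edgeR adjusted p of 5.14e-05. In these 3 genes every IP library lay above every input library, as in 35.2% of all genes for H4K5ac and 32.7% for H4K8ac. They stayed past the threshold with each library left out in turn. The H2A gene his-7 passed for H4K8ac at a log2 fold of 0.15 ± 0.06 and an edgeR adjusted p of 0.0441, but its groups overlapped. It passed in 2 of the 6 fits that left out 1 library, and not without IP replicate 3 or any 1 of the inputs, with adjusted p up to 0.206 without input replicate 2. Under scaling by total counts the adjusted p was 0.270.

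The closest neighbour of his-32 among them, the H2B gene his-29, was the third lower gene for H4K5ac. It had 145, 144 and 160 CPM in H4K5ac IP and 167, 177 and 173 CPM in input, a log2 fold of -0.21 ± 0.07 (SE) with an edgeR adjusted p of 0.0246. It passed in 3 of the 6 fits that left out 1 library. The adjusted p was 0.0853 without IP replicate 2, 0.106 without input replicate 2 and 0.0726 without input replicate 3. For H4K8ac its log2 fold was -0.09 with an adjusted p of 0.179. The other H3.3 gene, his-71, had 256, 218 and 211 CPM in H4K5ac IP and 201, 214 and 222 CPM in input. IP replicate 1 alone stood above all inputs, and the log2 fold was 0.11 with an edgeR adjusted p of 0.285. For H4K8ac it had 223, 209 and 219 CPM in IP and 233, 231 and 229.9 CPM in input, which did not overlap, at a log2 fold of -0.09 and an edgeR adjusted p of 0.145. The remaining genes had values on both sides of 0, from -0.09 for the H2A gene his-3 to 0.13 for the H4 gene his-67, and none passed. Among them, his-3 for H4K5ac and the H3 gene his-2 for H4K8ac name the region over the same cluster of 4 genes.

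**Figure D3:**
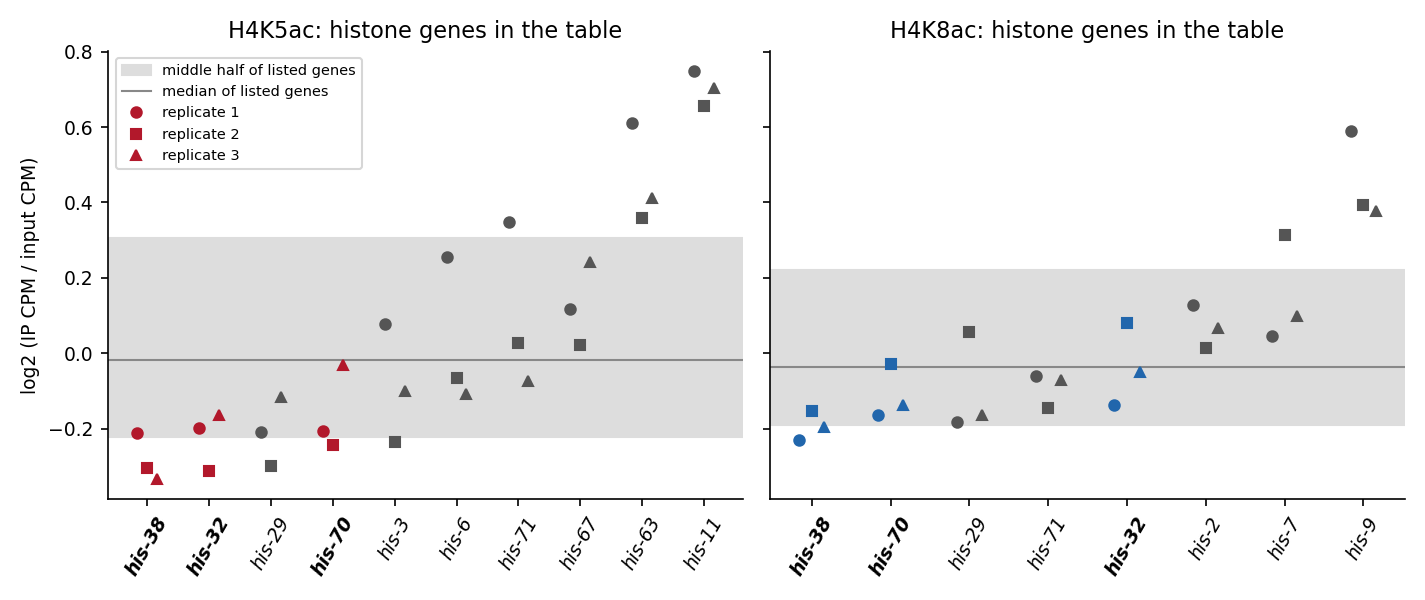
Log2 ratio of IP over input in each replicate (circle, square and triangle for replicates 1, 2 and 3) for every histone gene listed for H4K5ac and H4K8ac. The grey band runs from the lower to the upper quartile of all listed genes, and the line is their median. The replicates of his-38 run from -0.33 to -0.15 over both marks and those of his-11 lie far above 0. Positions relative to 0 depend on the scaling, and those of his-32, his-38 and his-70 turn positive in the fit when the 20% of genes with the least enrichment sets the scale.

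The marks were compared directly through the H4K5ac fold minus the H4K8ac fold, in a fit of all 12 libraries to the 3750 genes in both tables. For his-32 the log2 difference was -0.21 ± 0.10 (SE), with an unadjusted p of 0.0453, an edgeR adjusted p of 0.335 and a 95% interval from -0.41 to -0.02. For his-38 it was -0.10 ± 0.08 with an edgeR adjusted p of 0.506 and an interval from -0.26 to 0.05. For his-70 it was -0.06 ± 0.09 with an edgeR adjusted p of 0.739 and an interval from -0.24 to 0.11. The H4K5ac fold was the lower in each, but no difference passed. By edgeR, 0% of the common genes passed, with 549 at an unadjusted p under 0.05, while DESeq2 called 41 genes and limma voom 0.

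For his-32 and his-38, the region that carried the gene's name was annotated to the promoter of another histone gene. The same held for his-29, his-3, his-6 and his-67 for H4K5ac and for his-2, his-7 and his-9 for H4K8ac. It did not hold for his-70, his-71, his-63 and his-11, nor for his-29 for H4K8ac. The his-38 region was the same for both marks, at X:7309001-7310599 in WBcel235, which runs from 724 bp before the his-38 TSS to 874 bp after it, and its annotation names the promoter of the H3 gene his-40. The his-32 region was IV:8333201-8336599 for H4K5ac and started earlier, at 8333001, for H4K8ac. It is annotated to the promoter of the H4 gene his-31. The his-70 region was III:4059601-4061399 for H4K5ac and ended at 4061599 for H4K8ac, and it lies at the promoter of his-70 itself. The gene bodies are at IV:8334305-8334715 for his-32, X:7309564-7309875 for his-38 and III:4059715-4060119 for his-70, and each is wholly inside its region.

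Each of the 3 genes sits in a histone cluster. Grouping core histone genes less than 10 kb apart gave 18 clusters, 14 of them with more than 1 gene. The cluster of his-32 holds 6 genes, his-29 to his-34, over 5.30 kb and includes all 4 core classes. The gene his-38 pairs with his-40 over 0.957 kb, and his-70 with the H3.3-like gene his-69 over 1.76 kb. In the list ordered by decreasing IP over input, the his-32 region stood at position 4869 of 6432 for H4K5ac and 3132 of 6397 for H4K8ac, the his-38 region at 5395 and 4826, and the his-70 region at 4218 and 3889. That order is itself the ratio (Spearman with the log2 ratio -0.9998 and -0.9999) and adds no separate evidence.

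**Figure D4:**
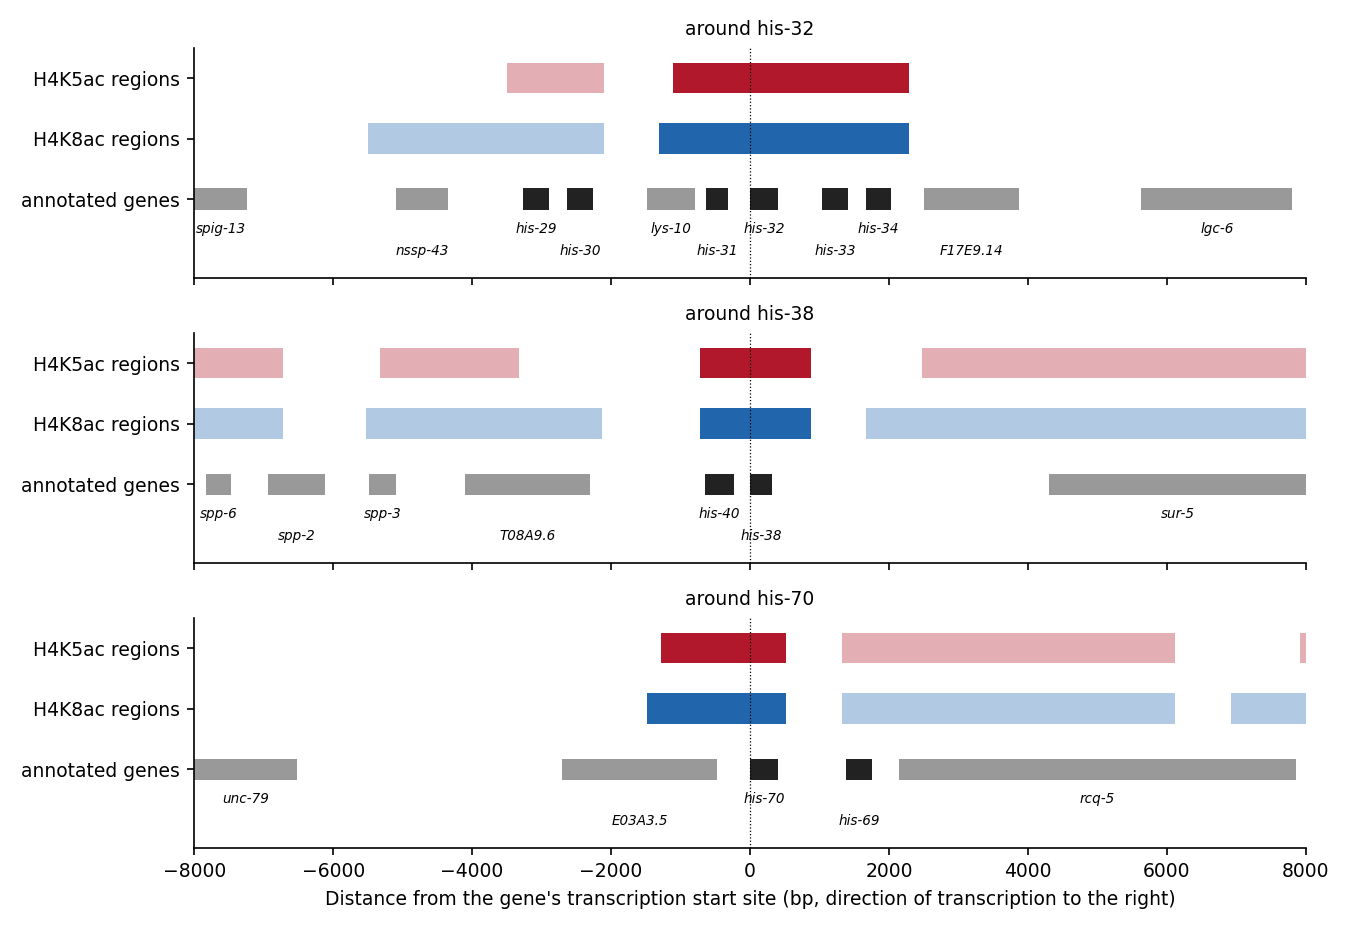
Map of the region of his-32, his-38 and his-70 and of neighbouring listed regions for both marks, with annotated genes, on an axis of distance from each gene's TSS in bp, 8 kb to either side, with transcription to the right. Dark bars are the region named for the gene, pale bars other listed regions and black bars histone genes. The his-38 region has the same ends for both marks, and the his-32 region covers its neighbours his-31, his-33 and his-34.

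Shorter regions went with lower ratios of the genes they are named for across the tables. Each ratio comes from 1 count per gene, repeated on every region of that gene, so no ratio was measured over a region itself. The his-38 region of 1.60 kb was at the 18.1 percentile of region length for H4K5ac and the 15.0 percentile for H4K8ac, against medians of 3799 and 4199 bp. The his-70 regions were 1.80 and 2.00 kb, at the 22.1 and 21.8 percentiles. The his-32 regions, 3.40 and 3.60 kb, were near the middle, at the 46.6 and 45.2 percentiles. By contrast, the region of his-11 was 20.4 kb, that of his-9 25.4 kb and that of his-63 15.0 kb. Across all regions, the Spearman correlation of length with the log2 ratio was 0.529 for H4K5ac and 0.490 for H4K8ac, and across histone genes it was 0.806 (n = 10) and 0.881 (n = 8). These are descriptions over regions of the same libraries, in which 6432 and 6397 regions reuse the values of 5632 and 5671 genes. The part of region length in the folds was not tested. Over regions up to 2 kb, the median log2 ratio of the named gene was -0.21 for H4K5ac and -0.16 for H4K8ac, near the values of his-38 and his-70. Above 10 kb it was 0.39 and 0.29.

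**Figure D5:**
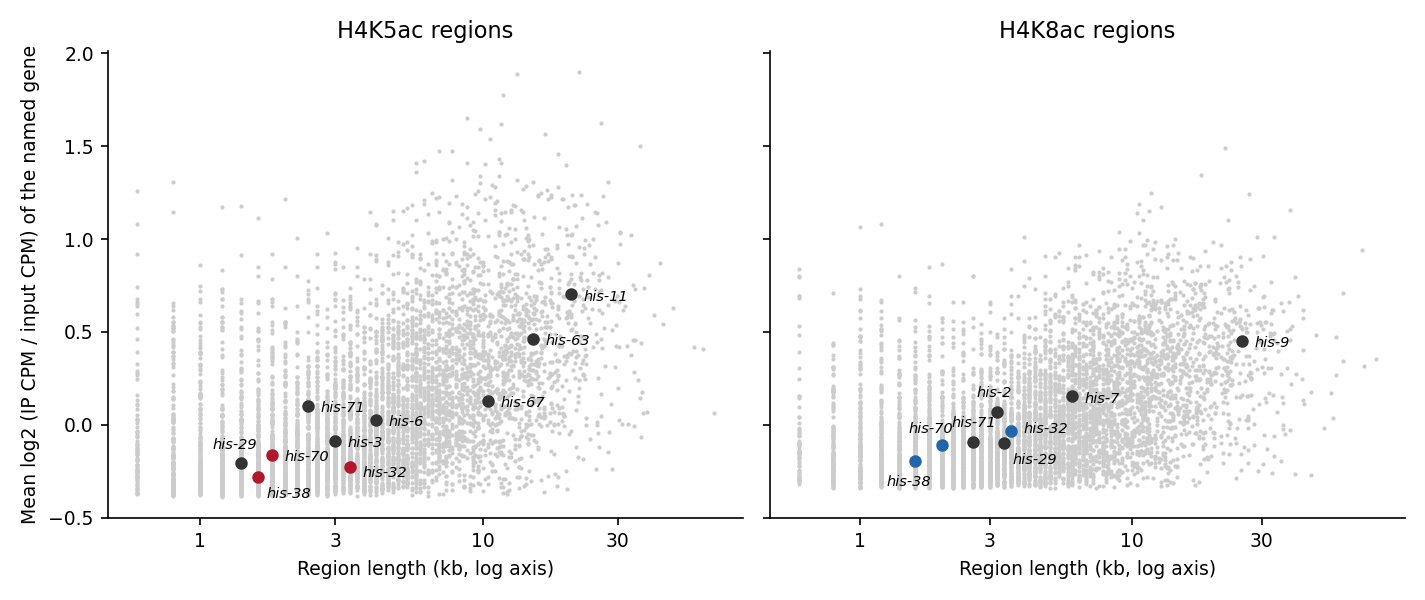
Log2 ratio of IP over input of the named gene against region length in kb (log axis) for all regions of each table, with the histone genes marked. A gene's ratio is repeated on each of its regions. The regions of his-38, his-70 and his-32 lie at 1.60 to 3.60 kb with ratios below 0 on the scaling used, and his-11, his-63 and his-9 lie at 15.0 to 25.4 kb with ratios above 0.

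Listed neighbours within 10 kb did not all share the folds of the histone gene. Beside his-38, the saposin-like genes spp-3 and spp-4 had H4K5ac log2 folds of -0.32 and -0.36, with edgeR adjusted p of 0.0168 and 0.00247. For H4K8ac they were -0.24 and -0.31, and both genes passed for both marks. Of all genes, 29.5% passed as lower for H4K5ac and 33.6% for H4K8ac. With the least enriched genes as the scale 0 did, which the construction of that scale brings about. The H4K5ac log2 ratios of spp-3 ran from -0.58 in replicate 1 to -0.04 in replicate 3. The nearer gene sur-5 had 0.02 for H4K5ac and -0.06 for H4K8ac and passed for neither. Beside his-70, the gene of the RecQ helicase rcq-5, whose region also covers his-69, had 0.07 for H4K5ac, with an edgeR adjusted p of 0.349. For H4K8ac, where rcq-5 names a further region with the same count, it had 0.18, with an edgeR adjusted p of 0.0115. That was opposite in direction to the H4K8ac fold of his-70, -0.11, which did not pass. The his-70 fold was 0.17 with the least enriched genes as the scale, below the median of all genes on that scale, 0.24.

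By the root mean square difference of log2 ratios over the 6 replicate pairs, the genes most like his-32 of 3749 others were the vitellogenin gene vit-1, at 0.0394, K02D7.7, at 0.0546, and his-29, at 0.0554, where the median gene was at 0.243. Those most like his-38 were F25E5.5, at 0.0395, the collagen gene col-174, at 0.0402, and the neprilysin gene nep-2, at 0.0437, with a median of 0.291. For his-70 they were F28A10.5, at 0.0270, K02D7.7, at 0.0401, and Y48G8AL.12, at 0.0408, with a median of 0.224. Among the 3 histone genes, his-32 and his-70 were the closest, at 0.0843, while his-38 was 0.137 from his-32 and 0.139 from his-70. All these ratios join IP and input by replicate number, which did not pair the H4K8ac samples.

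A list of 26 genes of histone supply had 8 members in each table. The list held linker histones, histone variants, chaperones and assembly factors, the histone mRNA binding protein cdl-1 and the acetyltransferase hat-1. For H4K5ac 3 were higher in IP and none lower, with a median log2 fold of 0.02, against the 32.2% higher over all genes. With the least enriched genes as the scale, 7 of the 8 were higher for each mark, where 3385 genes in all were higher for H4K5ac and 3696 for H4K8ac. With total counts 3 were higher and 1 lower for H4K5ac and 5 higher and 1 lower for H4K8ac. The histone-binding protein rba-1 had 0.78 ± 0.07 (SE), with an edgeR adjusted p of 8.05e-06. The type B acetyltransferase hat-1, which acts on new H4, had 0.75 ± 0.09, with an edgeR adjusted p of 5.92e-05. The lowest for H4K5ac were hil-3, at -0.19 with an edgeR adjusted p of 0.0818, and cpar-1, at -0.03 with 0.700. The linker histone hil-3 passed as lower with total counts as the scale, at an edgeR adjusted p of 0.00562, and by DESeq2, at 0.0479. It also passed as lower without IP replicate 1, at 0.00742, or input replicate 1, at 0.0193 (edgeR). For H4K8ac 6 were higher and none lower, with a median of 0.40, against 31.2% over all genes. Again rba-1 had the largest fold of the list, 0.62 ± 0.06, with an edgeR adjusted p of 2.88e-06, and the ASF1 homologue unc-85 had 0.53 ± 0.07, with an edgeR adjusted p of 5.67e-05. The lowest were chaf-1, at -0.11 with an edgeR adjusted p of 0.121, and hil-5, at 0.03 with 0.612. The FACT subunit hmg-3 was the weakest of the 6 higher genes, at 0.14 and an edgeR adjusted p of 0.0406. It passed in 2 of the 6 fits that left out 1 library, and not without IP replicate 1 or any 1 of the inputs. Its adjusted p was 0.0573 by limma voom, 0.264 with total counts as the scale and 0.145 with all 12 libraries. The 8 members were not all the same for both marks, so the counts of the marks are over unlike genes. Of the 6 members in both tables, 3 were higher and 0 lower for each mark in the fit of all 12 libraries. Their median log2 folds were 0.21 for H4K5ac and 0.25 for H4K8ac. In that fit 1267 and 1152 of the 3750 common genes were higher.

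Regions under other names covered most core histone genes. For each mark 65 of the 71 core histone genes were overlapped by at least 1 bp of a listed region and 64 lay wholly inside one, whereas 53.3% of all protein-coding genes were overlapped for H4K5ac and 58.1% for H4K8ac. Of the 65, 52 for H4K5ac and 51 for H4K8ac were under a region in the upper part of the ordered list, split at its middle. That is 80% and 78.5% of the overlapped histone genes, against 70.6% and 70.2% of all overlapped protein-coding genes, and clustered genes share regions. The 6 genes not overlapped were the same for both marks, his-49 to his-54, which form 1 cluster at V:8847393-8854053. The next cluster, 8 genes at V:8889488-8898539, lies 35.4 kb away under a region named for K06C4.1, which measured 32.6 kb for H4K5ac and 33.4 kb for H4K8ac. That region's gene had log2 folds of 0.00 ± 0.07 and -0.06 ± 0.07 (SE), with edgeR adjusted p of 0.964 and 0.445. Since the tables do not list every region number, the lack of a listed region over his-49 to his-54 does not show that the mark is absent there.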

How the data were processed

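Per the submitters' processing notes, bcl2fastq 2.17, Trimmomatic 0.33, Bowtie 1.1.2 and MACS2 2.1.0 were used, with builds WBcel235 and hg38 named without a role. Per the labels' protocols, fragments were 0.2 to 1 kb. The authors deposited 1 list of regions per mark, with 1 estimated count per gene and library, unnormalized and repeated on each region of a gene. The counting tool, and any pooling of samples for the peak call, are not given in the sources used here. Of the matched lines, 99.98% lay on the gene's chromosome in WBcel235, to which coordinates refer, and 5585 and 5622 gene names matched its RefSeq table. On 12 and 10 lines the name reads as a date and was kept as deposited.

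Counts were rounded and tested with edgeR 4.0.16 (R 4.3.3), quasi-likelihood, TMM scaling, in each table by itself, with Benjamini-Hochberg adjustment over all its genes and a threshold of 0.05. The low-count filter removed 0 genes. The difference between marks used all 12 libraries and 3750 common genes. CPM and log2 ratios are TMM-adjusted, and a ratio takes IP and input of the same number. The steps were tested on simulated data. Alternatives used DESeq2 1.42.0 and limma 3.58.1. Deposited counts behind a value were 329 to 591 for his-32, 1272 to 2001 for his-38 and 738 to 1228 for his-70, and their precision covers counting error only.

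The genes and lists, and the rule that named the 3 most alike genes, were chosen with earlier results of these data known. IP and input with the same number correlated in their deviations from the group means at 0.278, 0.11 and 0.226 for H4K5ac. These values pass the rule of 0.1 for pairing by number. Unlike numbers also passed it, at 0.145 for IP replicate 2 with input replicate 3 and 0.152 for IP replicate 3 with input replicate 2. For replicate 2 the same number did not give the highest value, so that pairing is not settled. For H4K8ac the correlations of the same number were -0.239, -0.101 and 0.066.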

Additional observations from a re-analysis of the deposited data

How the results depend on the processing

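The calls of his-38 held under all alternatives except scaling to the 20% of genes with the least enrichment. That scale takes the lowest ratios as unchanged, so it raises all folds by construction. That scaling moved the median of all genes to 0.30 for H4K5ac and 0.24 for H4K8ac, and the folds became 0.086, 0.036 and 0.155 for H4K5ac and 0.24, 0.083 and 0.166 for H4K8ac in his-32, his-38 and his-70, where his-32 and his-70 passed as higher for H4K8ac. The his-70 difference between marks became 0.009. Without H4K8ac IP replicate 1 the H4K8ac fold of his-32 was 0.041. Total counts as the scale moved the medians to -0.15 and -0.11, the share of calls that were higher to 33.9% for H4K5ac, against 52.2%, and to 36.8% for H4K8ac, against 48.1%, and the his-70 folds to -0.29 and -0.18. The H4K5ac fold of his-70 also passed at -0.16 by DESeq2 and at -0.20 with all 12 libraries.

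The H4K8ac count fell to 2051 of 3750 genes with all 12 libraries, where fewer genes were tested. The difference between marks had 41 calls by DESeq2 in place of 0, 7 without H4K5ac IP replicate 1 and 193 without H4K5ac IP replicate 3.

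Leaving out each library gave 2649 to 3593 calls for H4K5ac, 2925 to 4192 for H4K8ac and 0 to 193 for the difference. The H4K5ac folds ranged from -0.25 to -0.18 for his-32, -0.31 to -0.26 for his-38 and -0.22 to -0.13 for his-70. The H4K8ac folds ranged from -0.064 to 0.041, -0.20 to -0.16 and -0.13 to -0.08 in the same order, and the differences from -0.27 to -0.14, -0.13 to -0.06 and -0.12 to -0.03.

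With the replicate block, counts of calls were 3734 for H4K5ac, 3572 for H4K8ac and 0 for the difference. The block gave H4K5ac folds of -0.23, -0.28 and -0.16 and H4K8ac folds of -0.04, -0.19 and -0.11 for his-32, his-38 and his-70, and it changed no call of these genes. With the replicate block the H4K8ac calls of his-7 and hmg-3 were lost, at adjusted p of 0.0537 and 0.0683. In H4K8ac the replicate numbers did not pair the samples. Clusters of histone genes numbered 17 when joined at 20 kb. Apart from the scalings and replicates named, the cause of these shifts was not tested. Near-identical copies and fractional counts limit each single-gene value.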
